A study of Homo sapiens with 36 samples.

Results

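The input RNA of HEK293T cells that expressed YTHDF1-ADAR was compared with the input RNA of HEK293T cells that expressed YTHDF2-ADAR. The groups were chosen by their labels alone, 3 input libraries from each line, which makes 6 of the 36 libraries of the series. HEK293T is a transformed line of human embryonic kidney origin that carries the SV40 large T antigen. Both lines were treated with doxycycline at 1 µg/mL for 24 h to switch on a fusion of a YTHDF protein with an ADAR enzyme. Lysates of these lines went through immunoprecipitation with antibodies to the endogenous YTHDF1, YTHDF2 or YTHDF3 (RIP), and the input is total RNA from a fraction of the lysate that did not go through it. The third line of the series, YTHDF3-ADAR, was treated likewise, and its 3 inputs are given beside the pair. All 3 lines carry a fusion and all were induced, so none of them shows the level of a gene in unmodified HEK293T cells. The labels do not say whether a line is 1 clone or a pool, nor whether the replicates are separate cultures, so the p-values here speak only of how these libraries vary, which may be technical.

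YTHDF1, YTHDF2 and YTHDF3 are cytosolic proteins that bind N6-methyladenosine (m6A), the most common internal mark of messenger RNA, through their YTH domain. YTHDF2 is best known for recruiting the CCR4-NOT deadenylase to methylated mRNAs, and YTHDF1 was first described as a promoter of their translation. ADAR enzymes turn adenosine into inosine, so a fused ADAR leaves edited bases on the RNAs that the YTHDF part touches, a method known as TRIBE. The input comparison reads gene expression in the lines on which such binding maps rest. In these bulk libraries, fewer cells with a transcript and less of it per cell cannot be told apart.

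The 6 inputs held 20.7 to 35.1 M counts (M for 1e6), of which protein-coding genes took 71.5 to 78.9%. YTHDF1-ADAR replicate 1 stood apart from the other 8 inputs of the 3 lines. It was the shallowest of the 6, the microRNA gene MIR3648 took 5.63% of its counts against 0.0328 to 0.304% in the other 8, and mitochondrially encoded mRNAs took 0.663% against 1.02 to 2.58%. A gene is therefore called here only where edgeR's quasi-likelihood test gave a Benjamini-Hochberg adjusted p under 0.05 in the same direction both without that library and with it, and fold changes and p-values are those without it. Levels are normalised CPM (counts scaled to a library of 1e6 counts), and a positive log2 fold change means a higher level in YTHDF1-ADAR cells. Of 14 genes of the HEK293 line and embryonic kidney, 9 reached 1 CPM, among them SIX2, WT1, PAX2, SALL1 and LHX1, and they summed to 180 to 200 CPM in YTHDF1-ADAR and 177 to 182 CPM in YTHDF2-ADAR cells. Among genes of other cell types, PTPRC, HBB and CD3D of blood, APOB and KRT5 of liver and epithelium and COL1A2 of fibroblasts were at 0. The 12 blood genes together reached 9.24 to 11.5 and 7.03 to 9.99 CPM, the 10 epithelial and hepatocyte genes 30.3 to 30.7 and 27.6 to 29.0 CPM, and the 11 fibroblast and muscle genes 34.2 to 47.6 and 35.4 to 41.7 CPM in the 2 lines.

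The genes of the fusions were read first, as a check of the labels. YTHDF1 stood at 496, 633 and 568 CPM in the 3 YTHDF1-ADAR inputs and at 76.1, 76.4 and 73.3 CPM in the 3 YTHDF2-ADAR inputs. Its log2 fold change was 3.00 ± 0.10 (SE; edgeR adjusted p = 7.2e-10), and the YTHDF3-ADAR inputs lay at 76.0 to 84.3 CPM. YTHDF2 stood at 123, 155 and 135 CPM in YTHDF1-ADAR and at 274, 276 and 273 CPM in YTHDF2-ADAR cells, a log2 fold change of -0.92 ± 0.10 (edgeR adjusted p = 0.00024). The groups did not overlap for either gene, as was so for 15.2% (higher) and 21.8% (lower) of all protein-coding genes tested, and each was higher in the line labelled for it. The difference from YTHDF3-ADAR cells was unequal: 2.89 on the log2 scale for YTHDF1 in its own line and 0.69 for YTHDF2 in its own line, where YTHDF3-ADAR inputs held 164 to 176 CPM of YTHDF2. Reads of a fusion and of the endogenous gene cannot be told apart in these counts.

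ADARB1, which encodes the editing enzyme ADAR2, differed more than either YTHDF gene. It stood at 445, 479 and 472 CPM in YTHDF1-ADAR, at 47.9, 50.2 and 51.3 CPM in YTHDF2-ADAR and at 1847, 1783 and 1756 CPM in YTHDF3-ADAR inputs. The 3 lines did not overlap, and the log2 fold change between the first pair was 3.26 ± 0.10 (SE; edgeR adjusted p = 5.9e-10). Counts on ADARB1 thus were not at 1 level across the lines. ADAR, the gene of the ubiquitous ADAR1, differed by -0.13 (adjusted p = 0.42), and YTHDF3 by 0.06 (adjusted p = 0.84), with 44.3, 51.9 and 45.3 CPM against 39.9, 45.9 and 54.9 CPM and 92.2 to 118 CPM in YTHDF3-ADAR inputs.

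**Figure D1:**
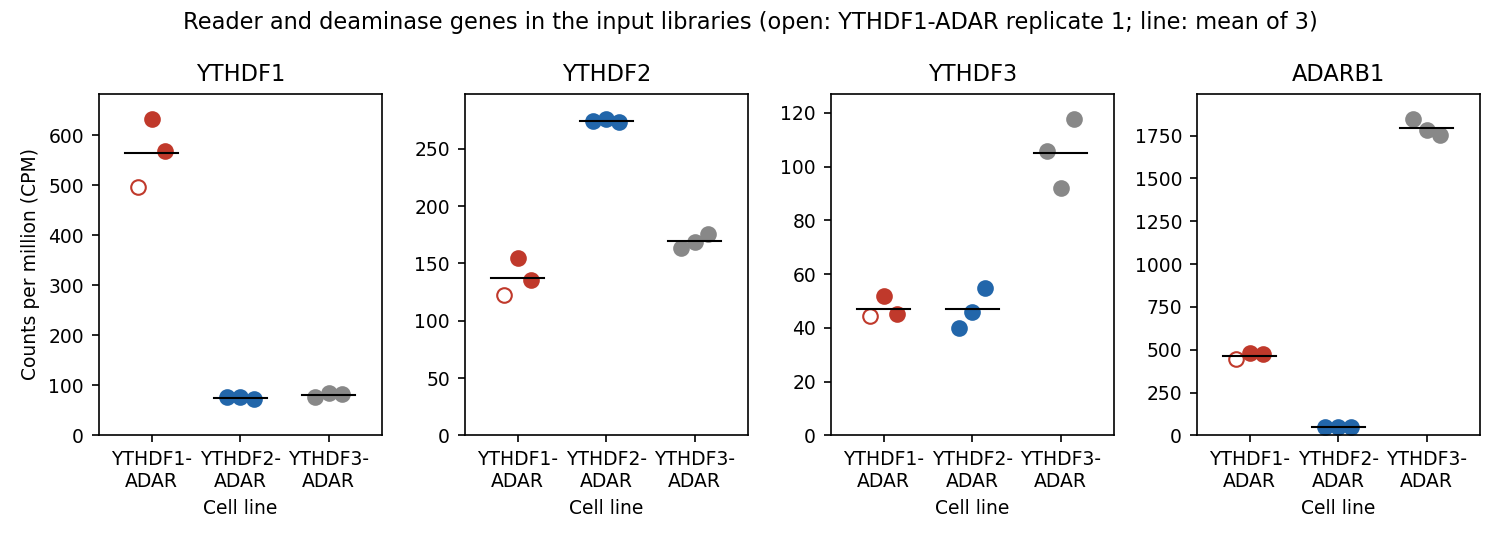
Level (CPM, linear axis from 0) of YTHDF1, YTHDF2, YTHDF3 and ADARB1 in each input library of the 3 lines, 1 point per library, with a line at the mean of 3 and an open circle for YTHDF1-ADAR replicate 1. Of these lines, YTHDF1-ADAR has the most YTHDF1, YTHDF2-ADAR the most YTHDF2 and YTHDF3-ADAR the most YTHDF3. ADARB1 takes 3 separate levels, lowest in YTHDF2-ADAR.

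Few other genes of the m6A machinery were called. Across all protein-coding genes tested, 4.35% were called higher and 4.57% lower, and the counts of each list below are read against these shares. Of 9 writer genes, 1 was called, WTAP, a subunit of the methyltransferase complex, at -0.33 ± 0.09 (SE; edgeR adjusted p = 0.044). Its exons overlap those of SOD2, and the call was lost when any one of the other 5 libraries was left out. The catalytic METTL3 stood at 0.28 (adjusted p = 0.068) and its partner METTL14 at 0.01, and the erasers FTO and ALKBH5 at -0.24 and 0.03, none of them called. Of 15 erasers and readers only YTHDF1 and YTHDF2 themselves were called. Of 24 mRNAs widely described as m6A-modified, 2 were called higher, HOXB4 among them, and MYC lower, with a median of 0.04. MYC, a growth-promoting transcription factor, stood at 204, 275 and 237 CPM in YTHDF1-ADAR and 363, 364 and 333 CPM in YTHDF2-ADAR inputs, at -0.46 ± 0.10 (edgeR adjusted p = 0.016). That call was lost without YTHDF1-ADAR replicate 3 or without YTHDF2-ADAR replicate 1 or 2, MYC overlaps CASC11, and the RIP libraries described below gave -0.25 (adjusted p = 0.22). Of 39 mRNA decay genes, POP1 and SMG1 were higher and XRN2 and DCPS lower. XRN2, the nuclear exonuclease that ends transcription, stood at 90.9, 93.6 and 93.0 CPM against 147, 149 and 162 CPM, and lies in the stretch of chromosome 20 described at the end. ACTB, GAPDH and HPRT1 were not called.

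Across all 14925 protein-coding genes tested, 649 were called higher in YTHDF1-ADAR cells (4.35%) and 682 lower (4.57%), and the median log2 fold change was -0.04. Of these, 215 (1.44%) were higher and 109 (0.73%) lower by at least 2-fold. By the fit without YTHDF1-ADAR replicate 1 alone, 694 were higher (4.65%) and 728 lower (4.88%), and with all 9 inputs in the fit 7.49% were higher and 8.59% lower. Scaling on protein-coding genes alone turned this split to 939 higher and 634 lower, from 48.8 to 59.7% higher, so the balance of higher to lower genes rests on the scaling. The called number also rests on few libraries. Without YTHDF1-ADAR replicate 2, 233 genes were higher and 165 lower, without YTHDF2-ADAR replicate 1, 330 and 317, and without YTHDF2-ADAR replicate 2, 394 and 368. A call in all 5 such leave-outs was held by 145 of the 649 (22.3%) and 110 of the 682 (16.1%), and by 91 of the 215 (42.3%) and 56 of the 109 (51.4%) with a difference of at least 2-fold.

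The YTHDF3 RIP libraries of the same lines, 3 against 3 and none of them an input, gave a second reading. They come from lysates of the same cells and mix a gene's level with its recovery on the beads. In them 589 of 15030 protein-coding genes were called higher (3.92%) and 914 lower (6.08%) by edgeR with Benjamini-Hochberg adjustment. Of the 649 genes higher in the inputs, 648 were tested there, 309 (47.7%) were called higher, none lower, and 634 had the same sign. Of the 682 lower genes, 681 were tested, 328 (48.2%) were called lower, none higher, and 675 had the same sign. The share was larger among differences of at least 2-fold: 152 of 214 (71%) and 88 of 108 (81.5%). Leaving out any 1 of the 6 RIP libraries of the pair left 133 to 272 and 99 to 304 shared calls, lowest without YTHDF1-ADAR RIP replicate 2, and 0 opposite calls each time.

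**Figure D2:**
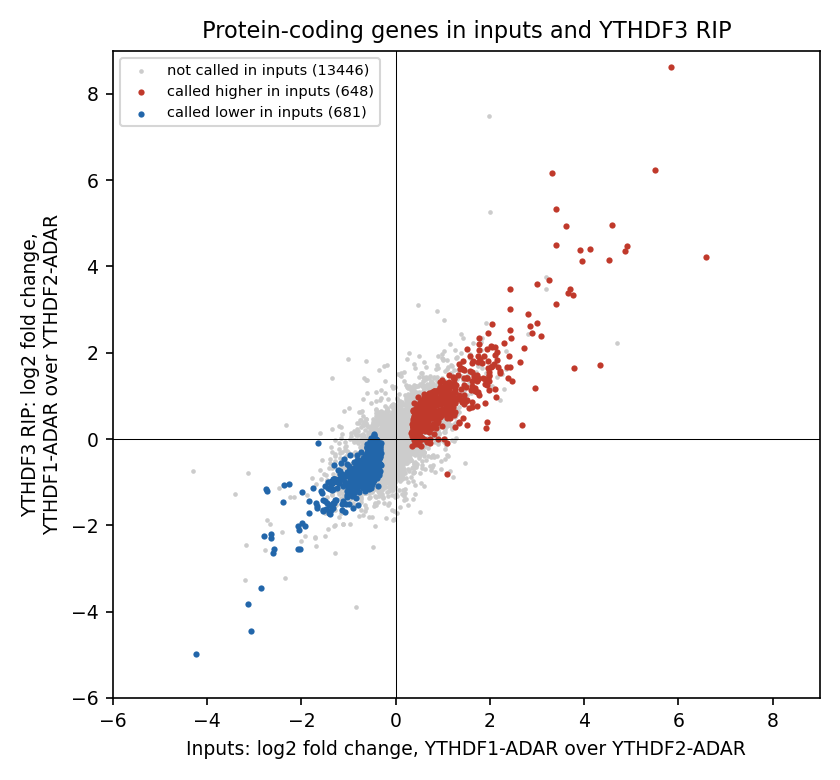
Log2 fold change of each protein-coding gene between YTHDF1-ADAR and YTHDF2-ADAR cells in the inputs (x axis) and in the YTHDF3 RIP libraries (y axis), with genes called in the inputs coloured by direction. Of 14775 genes, 1 lies beyond the axes. Most genes called in the inputs lie in the upper right and lower left (634 and 675 of them), and none of them was called the opposite way in the RIP libraries.

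Among the 14 protein-coding genes with the highest fold changes, those with at least 4 CPM on average, several were near silent in YTHDF2-ADAR cells. P2RY8, a G-protein-coupled receptor best known from B cells (X chromosome, 1462581 to 1537185 on GRCh38), stood at 12, 6.68 and 8.96 CPM against 0.12, 0.201 and 0.0744 CPM, a log2 fold change of 5.84 ± 0.33 (SE; edgeR adjusted p = 5.9e-07). In the YTHDF3 RIP it stood at 24.2, 22.7 and 26.3 CPM against 0.0651, 0 and 0.115 CPM. ASMTL, its neighbour in the same pseudoautosomal region, stood at 334, 201 and 394 CPM against 25.2, 22.5 and 17.8 CPM (3.77 ± 0.33, edgeR adjusted p = 0.0015), and shares exonic sequence with ASMTL-AS1, itself at 3.46. For both genes the YTHDF3-ADAR inputs lay with those of YTHDF2-ADAR, at 0.0687 to 0.137 CPM and 16.6 to 27.0 CPM. The next tested genes on either side, SLC25A6 at -0.43 and AKAP17A at 0.25, were not called.

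NPTX2, a secreted neuronal pentraxin that gathers AMPA receptors at synapses, stood at 458, 342 and 461 CPM in YTHDF1-ADAR against 32.0, 35.5 and 28.4 CPM in YTHDF2-ADAR inputs. Its log2 fold change of 3.65 ± 0.15 (SE; edgeR adjusted p = 1.8e-08) was 3.37 in the RIP libraries, and its neighbours BAIAP2L1 (-0.08) and TMEM130 (0.03) were not called. MID1, a microtubule-associated ubiquitin ligase of the X chromosome, stood at 248, 154 and 263 CPM against 44.2, 47.9 and 48.0 CPM (2.16 ± 0.17). FAM20C, the Golgi kinase of secreted proteins, stood at 67.1, 35.1 and 74.1 CPM against 13.4, 14 and 9.37 CPM (2.16 ± 0.28). In these 3 genes, too, the YTHDF3-ADAR inputs were low: 28.7 to 39.0 CPM for NPTX2, 42.9 to 49.0 CPM for MID1 and 7.91 to 8.55 CPM for FAM20C.

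For other genes YTHDF2-ADAR was the line with the low level. TNFRSF10D, a decoy receptor for the death ligand TRAIL, stood at 9.53, 15 and 10.9 CPM in YTHDF1-ADAR, 0.389, 0.905 and 0.372 CPM in YTHDF2-ADAR and 9.13, 9.82 and 10.4 CPM in YTHDF3-ADAR inputs. Its log2 fold change was 4.54 ± 0.27 (SE; edgeR adjusted p = 9.7e-07). OXCT1, the mitochondrial enzyme that lets cells use ketone bodies, followed the same order at 14.1, 11.6 and 14.5 CPM, then 2.21, 2.18 and 2.86 CPM, then 15.9, 13.8 and 16.4 CPM (2.44 ± 0.17). The serotonin transporter gene SLC6A4, below the level set for the 14, stood at 4.30, 4.72 and 1.30 CPM, 0.18, 0.067 and 0.112 CPM, and 5.6, 6.76 and 6.25 CPM in the same order. ZNF804A was at 0.931, 0.753 and 0.602 CPM in YTHDF1-ADAR, at 0.0299, 0 and 0 CPM in YTHDF2-ADAR and at 2.87, 2.98 and 4.46 CPM in YTHDF3-ADAR inputs. FOXQ1, a forkhead transcription factor, took 3 levels: 12.7, 9.59 and 9.26 CPM, then 1.17, 1.34 and 1.30 CPM, then 2.93 to 3.92 CPM in YTHDF3-ADAR cells. RASSF2, which binds Ras, did so too at 23.9, 18.2 and 22.2 CPM, 4.43, 5.19 and 5.09 CPM, and 8.80 to 9.55 CPM. In all of these the YTHDF1-ADAR and YTHDF2-ADAR libraries did not overlap, which the naming rule required of all but SLC6A4 and ZNF804A. Of all protein-coding genes tested, 15.2% were higher without overlap.

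The remaining genes of the 14 were YTHDF1, ADARB1, FOS, EPPK1 and SPDYE5. EPPK1, the cytolinker epiplakin, stood at 455, 241 and 381 CPM against 88.8, 89.0 and 53.5 CPM (2.02 ± 0.32), and was the 1 gene of the 14 not called in the RIP libraries (1.68, edgeR adjusted p = 0.051). SPDYE5 belongs to a multicopy family whose reads can be shared between copies. Its call was lost without YTHDF1-ADAR replicate 2, as was that of FOS.

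**Figure D3:**
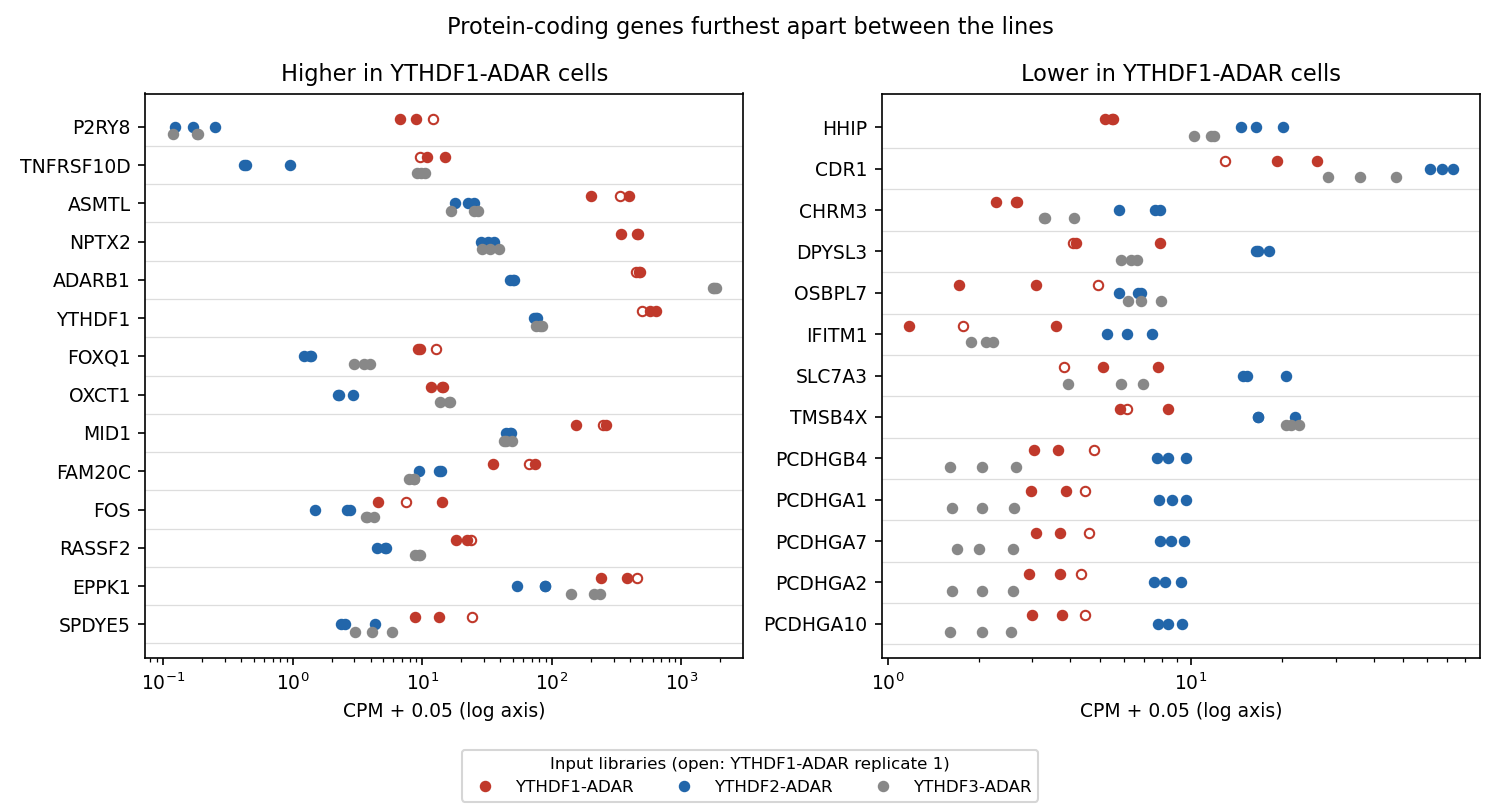
Level (CPM + 0.05, log axis) in each input library of the 14 protein-coding genes with the highest (left) and 13 of the 14 with the lowest (right) log2 fold changes, coloured by line, with the open circle marking YTHDF1-ADAR replicate 1. The YTHDF1-ADAR and YTHDF2-ADAR points do not overlap in any of these genes, which the rule for naming them required, and the YTHDF3-ADAR points lie now with one line, now with the other.

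The 14 protein-coding genes at the low end, under the same rule, differed less, from -1.67 to -1.34, and 5 of them were gamma protocadherins described below. TMSB4X, the actin-sequestering thymosin, stood at 6.12, 5.79 and 8.36 CPM against 22.0, 16.6 and 16.6 CPM, at -1.38 ± 0.18 (SE; edgeR adjusted p = 0.000665). The YTHDF3-ADAR inputs lay near the YTHDF2-ADAR level, at 20.5 to 22.6 CPM. DPYSL3, a collapsin response mediator of growing neurites, stood at 4.03, 7.84 and 4.15 CPM against 16.3, 16.6 and 18.1 CPM (-1.5 ± 0.21), and here YTHDF3-ADAR inputs lay low, at 5.83 to 6.57 CPM. CHRM3, a muscarinic acetylcholine receptor, stood at 2.62, 2.23 and 2.61 CPM against 7.54, 5.76 and 7.88 CPM (-1.54 ± 0.21). SLC7A3, a cationic amino acid transporter, stood at 3.77, 5.07 and 7.72 CPM against 20.5, 15.2 and 14.8 CPM, a call lost without YTHDF1-ADAR replicate 2 (edgeR adjusted p = 0.078).

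HHIP, an inhibitor of Hedgehog ligands, stood at 5.45, 5.17 and 5.48 CPM against 14.6, 16.3 and 20.01 CPM (-1.67 ± 0.16), with exons shared with HHIP-AS1. CDR1 stood at 12.9, 19.1 and 26.0 CPM against 67.1, 61.3 and 72.8 CPM, lies within LINC00632 (-1.28), and was not called in the RIP libraries (-1.25, edgeR adjusted p = 0.23). The counts do not separate the circular RNA of that locus from linear RNA. IFITM1, an interferon-induced membrane protein that overlaps IFITM2 in the annotation, was not called there either (-1.53, adjusted p = 0.061), and its input call was lost without YTHDF1-ADAR replicate 2 or YTHDF2-ADAR replicate 1 or 2. OSBPL7, which encodes an oxysterol-binding protein relative, stood at 4.88, 3.05 and 1.67 CPM against 6.64, 5.73 and 6.81 CPM. The other 12 of these 14 genes were called lower in both sets of libraries.

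The HOX genes, which set position along the body axis and lie in 4 clusters, had 15 members called higher in YTHDF1-ADAR cells and none lower. These were 39.5% of the 38 tested, against 4.35% of all protein-coding genes, 32 lay above 0, and the median log2 fold change was 0.42 against -0.04 over every protein-coding gene. The called genes were 4 of 11 in the A cluster, 5 of 9 in the B cluster, 1 of 9 in the C cluster and 5 of 9 in the D cluster. HOXB6 stood at 44.6, 31.1 and 31.8 CPM in YTHDF1-ADAR against 12.1, 13.5 and 13.5 CPM in YTHDF2-ADAR inputs (1.28 ± 0.11, edgeR adjusted p = 3.6e-05). HOXD9 stood at 21.7, 12.6 and 11.9 CPM against 4.16, 4.56 and 4.13 CPM (1.52 ± 0.16), and HOXA5, picked after its values were seen, at 36.5, 35.9 and 31.4 CPM against 17.1, 18.9 and 19.9 CPM (0.86 ± 0.12). The differences stopped at some neighbours. HOXD10 and HOXD9 were called at 0.66 and 1.52, while HOXD8, next to HOXD9, stood at -0.10. HOXB5 and HOXB6 were called at 1.14 and 1.28, while HOXB7, next to HOXB6, stood at 0.00.

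Summed over the HOX genes, the level was 779, 780 and 754 CPM in YTHDF1-ADAR, 548, 580 and 603 CPM in YTHDF2-ADAR and 669, 666 and 746 CPM in YTHDF3-ADAR inputs. YTHDF3-ADAR cells lay between the other lines in this sum but not in every gene: HOXB6 stood there at 26.1 to 29.5 CPM and HOXD9 at 4.45 to 5.49 CPM. In the RIP libraries 13 of the 15 called genes were called higher again, and the list's median was 0.56. Of the 15, 10 share exonic sequence with a neighbour, mostly antisense or adjoining HOX transcripts, so their counts are uncertain as single genes.

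Members of a list of 40 ATF4 and unfolded protein response genes were called lower in YTHDF1-ADAR cells. ATF4 is a transcription factor known to switch on genes of amino acid synthesis and transport. Of the 40 genes, 10 were called lower (25.0%, against 4.57% of all protein-coding genes), 29 were not called, and 1, the endoplasmic reticulum protein gene CRELD2, higher at 0.46, and the median was -0.34. SHMT2, the mitochondrial serine hydroxymethyltransferase, stood at 147, 141 and 190 CPM against 319, 307 and 286 CPM (-0.87 ± 0.14, edgeR adjusted p = 0.0030). PSAT1, an aminotransferase of serine synthesis, stood at 127, 153 and 206 CPM against 288, 304 and 316 CPM (-0.75 ± 0.12, edgeR adjusted p = 0.0031). In both the groups did not overlap, as was so on the lower side for 21.8% of all protein-coding genes tested. YTHDF3-ADAR inputs, at 167 to 222 CPM and 188 to 207 CPM, overlapped the YTHDF1-ADAR inputs and lay below the YTHDF2-ADAR inputs. Against YTHDF3-ADAR, the median of the 40 genes was 0.02 in YTHDF1-ADAR and 0.37 in YTHDF2-ADAR inputs. SLC6A9, a glycine transporter, and SLC7A11, the cystine transporter subunit that overlaps SLC7A11-AS1, were called at -0.88 and -0.83, and both calls were lost without YTHDF1-ADAR replicate 2.

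The remaining called members of the ATF4 list were read after their values were seen. ASNS, asparagine synthetase, stood at 90.0, 89.9 and 136 CPM against 231, 209 and 209 CPM (-0.93 ± 0.18, edgeR adjusted p = 0.010). MTHFD2, a mitochondrial folate enzyme, stood at 188, 218 and 264 CPM against 335, 379 and 406 CPM (-0.63), and CEBPG, a dimer partner of ATF4, at 46.0, 54.7 and 61.5 CPM against 88.9, 86.1 and 89.0 CPM (-0.59 ± 0.11). ALDH1L2 (-0.85), GPT2 (-0.67) and PHGDH (-0.66) completed the 10. ATF4 itself stood at -0.32 (adjusted p = 0.091), DDIT3 at -0.38, CHAC1 at -0.92 and PCK2 at -1.20, and the endoplasmic reticulum chaperone HSPA5 at 0.11, none of them called. In the RIP libraries 8 of the 11 called genes were called the same way, and ASNS was not among them (-0.72, adjusted p = 0.26). Of the 11, 7 share exonic sequence with another gene, so their counts are uncertain as single genes.

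The element that ATF4 and its C/EBP partners bind is read here as TGATGNAA on either strand, where N is any base. A pair of matches is shown because both genes were called lower. The sequences are RefSeq's for GRCh38.p14, written 5′ to 3′ along the gene's strand, with the match in capitals. For ASNS the window is the 250 bases before 1 of its annotated starts, chr7:97872409-97872658 on the minus strand, and the match begins 68 bases before that start. For CEBPG the stretch of 30 bases, chr19:33374060-33374089 on the plus strand, holds a match that begins 42 bases before its second annotated start, which lies within the longer transcript.
ASNS: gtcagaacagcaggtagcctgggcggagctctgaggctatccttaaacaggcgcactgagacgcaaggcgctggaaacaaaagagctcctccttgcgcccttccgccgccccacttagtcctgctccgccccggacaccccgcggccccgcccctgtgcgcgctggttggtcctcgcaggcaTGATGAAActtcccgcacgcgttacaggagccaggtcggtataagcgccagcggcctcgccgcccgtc
CEBPG: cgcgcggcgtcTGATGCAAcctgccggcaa
Of all 35116 promoter windows of this length in the table, 1104 (3.14%) hold a match, as do those of 291 of 11608 tested protein-coding genes (2.51%). Of the ATF4 list, 35 genes had a window and 5 held a match: ASNS, CHAC1, CEBPG, ATF3 and HERPUD1. A match was found in 2 of the 6 genes called lower that had a window and in 3 of the 29 others. A match is a description of the letters and not a measured binding site.

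The gamma protocadherins, neuronal cell adhesion proteins made from 22 variable first exons joined to common last exons, were all lower: 22 of 22, at -1.37 to -1.19. PCDHGB4 stood at 4.74, 2.98 and 3.61 CPM against 7.66, 9.58 and 8.37 CPM (-1.37 ± 0.22, edgeR adjusted p = 0.0027), and YTHDF3-ADAR inputs were lower still, at 1.56 to 2.6 CPM. The 22 share the counts of the common exons, so they are 1 signal and not 22. All 22 were called lower in the RIP libraries as well. Among 31 other protocadherins and cadherins, PCDH17, PCDH10 and CDH26 were higher (1.06, 0.60 and 1.16) and PCDH19, CDH3 and CDH4 lower (-1.26, -1.18 and -0.81), with a median of -0.04.

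Matrix and signalling genes showed single differences without a common direction. Of 73 extracellular matrix and TGF-beta genes, 6 were lower (8.22%, against 4.57% of all protein-coding genes) and 2 higher (2.74%, against 4.35%). FN1, which encodes fibronectin, stood at 40.6, 62.1 and 43.1 CPM against 117, 101 and 95.6 CPM (-0.99 ± 0.15, edgeR adjusted p = 0.0018), with YTHDF3-ADAR inputs at 52.7 to 60.8 CPM. TNC (-1.68), COL6A3 (-2.39), MMP2 (-0.77), TIMP3 (-0.74) and SERPINE2 (-0.64) were also lower, and COL10A1 (2.37) and ID1 (1.06) higher. In the Wnt pathway the receptor gene FZD1 stood at 37.5, 34.6 and 34.9 CPM against 17.7, 19.4 and 18.9 CPM (0.90 ± 0.10). WNT4 and FZD7 were higher too and FZD10 and FZD4 lower, of 44 tested. Among 35 synaptic and neuronal genes, NPTX2, NEFL and NRXN3 were higher and CALCB and NPTXR lower, and CALCB, a calcitonin gene-related peptide, stood at 16.0, 14.1 and 21.8 CPM against 44.3, 45.8 and 44.9 CPM (-1.32).

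Of 271 solute carriers, 20 were higher (7.38%, against 4.35% of all protein-coding genes) and 14 lower (5.17%, against 4.57%), shares near the background, with a median of 0.05. SLC16A7, a monocarboxylate transporter, was higher at 1.80 and the bicarbonate-transporter relative SLC4A11 at 0.97, and the glucose transporter gene SLC2A12 was lower at -0.77. Of 458 ZNF genes, 21 were higher and 44 lower. The lower calls lay mostly on chromosome 19, where such genes stand in clusters. The split was counted over a smaller set, the protein-coding genes named ZNF and a number. Of these, 37 of 201 were lower and 9 higher on chromosome 19 (median -0.14), against 7 lower and 11 higher of 244 elsewhere (median 0.03). ZNF284, of chromosome 19, stood at 0.399, 0.89 and 0.669 CPM against 3.08, 3.22 and 3.31 CPM. Of these called genes on chromosome 19, 28 share exonic sequence with another gene, so part of these counts may be read more than once.

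Immediate-early genes, transcribed within minutes of a growth or stress signal, had a median of 0.27, with 3 of 31 higher and MYC lower. DUSP2, a nuclear phosphatase of MAP kinases, stood at 3.41, 3.73 and 2.17 CPM against 0.419, 0.469 and 0.446 CPM (2.72 ± 0.32, edgeR adjusted p = 0.00039). IER5 stood at 332, 214 and 365 CPM against 96.1, 100.4 and 85.2 CPM (1.63 ± 0.18). FOS, a subunit of the AP-1 transcription factor, stood at 7.45, 14.2 and 4.55 CPM against 2.57, 2.71 and 1.45 CPM (2.05 ± 0.41, edgeR adjusted p = 0.016). Without YTHDF1-ADAR replicate 2 the value for FOS was 1.00 (adjusted p = 0.12), and without YTHDF2-ADAR replicate 1 its adjusted p was 0.053. In YTHDF3-ADAR inputs IER5 stood at 79.7 to 95.9 CPM, within reach of the YTHDF2-ADAR inputs, and DUSP2 at 0.56 to 0.739 CPM, above the YTHDF2-ADAR and below the YTHDF1-ADAR inputs.

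Of 21 heat shock genes 1 was called, HSPA1B, an inducible HSP70 gene with a near-identical copy, at 1752, 3887 and 1323 CPM against 827, 825 and 647 CPM (1.77, edgeR adjusted p = 0.047). That call was lost without any 1 of the YTHDF2-ADAR inputs, and the value was 0.78 without YTHDF1-ADAR replicate 2. Among 35 hypoxia and glycolysis genes, NDRG1 stood at 68.3, 97.1 and 75 CPM against 192, 184 and 169 CPM (-1.08 ± 0.13). SLC2A3, ALDOC and MXI1 were lower as well and ENO2 higher. Of 24 interferon and double-stranded RNA sensing genes, IFI44L and IFITM1 were lower and ISG20 higher. Of 25 p53 targets CCNG1 alone was called, at 87.5, 110 and 131 CPM against 183, 178 and 205 CPM (-0.64), and of 33 sterol and fatty acid synthesis genes none was called.

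Most genes of the translation and respiration machinery lay below 0, with few calls. Of 87 cytosolic ribosomal protein genes, 85 lay below 0 with a median of -0.29, and 5 (5.75%) were called lower, a share near the 4.57% of protein-coding genes at large. RPS6 stood at 446, 687 and 598 CPM against 1152, 944 and 961 CPM (-0.66 ± 0.12, edgeR adjusted p = 0.0050). Summed, these genes reached 27465, 33054 and 38927 CPM against 48868, 45106 and 39807 CPM, so the third replicates of the 2 lines were close. Of 80 nuclear-encoded respiratory chain genes, 72 lay below 0 (median -0.20) and ATP5MC2, COX5A and ATP5PO were called lower, all 3 lost without YTHDF1-ADAR replicate 2. Of 78 mitochondrial ribosomal protein genes 7 were lower and 1 higher, and of 13 mitochondrially encoded mRNAs MT-CO1 alone was called lower. With protein-coding genes split by exonic length into 5 equal parts, the median went from -0.08 in the shortest part to -0.02 in the longest, and the part of length in these medians was not tested.

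Small nucleolar RNAs, guides for the modification of ribosomal RNA that are cut from introns of host genes, were called higher in YTHDF1-ADAR cells in part. Over genes of every type, 1281 of 24112 were called higher (5.31%) and 773 lower (3.21%), or 5.56 and 3.47% without the need to hold with YTHDF1-ADAR replicate 1. Of 253 snoRNAs 58 were higher (22.9%) and none lower, with a median of 0.73. SNORD86 stood at 22.9, 22.7 and 22.3 CPM against 8.20, 11.3 and 6.88 CPM (1.35), and SNORD27 at 5.76, 5.51 and 3.14 CPM against 1.29, 1.27 and 1.52 CPM (1.67). The groups did not overlap in either, and 15.2% of protein-coding genes tested were likewise higher without overlap. That share was not counted over genes of every type. All snoRNAs together took 0.348, 0.235 and 0.162% of the counts in YTHDF1-ADAR against 0.195, 0.156 and 0.0943% in YTHDF2-ADAR inputs, and these shares do overlap. In the RIP libraries 52 of the 58 were called higher, as were 137 of all 253 snoRNAs. The median there over the 253 was 1.5, against 0.73 in the inputs. The share called higher in the RIP libraries was 3.92% for protein-coding genes and was not counted over genes of every type. Of the 58, 50 overlap their host or another gene, and the recovery of such short RNAs can differ between library preparations, which was not tested.

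Among the other noncoding genes, the host transcript of miR-29b-2 and miR-29c, MIR29B2CHG, stood at 24.2, 11.9 and 8.63 CPM against 2.06, 2.98 and 3.05 CPM (1.93 ± 0.22, edgeR adjusted p = 0.00039). ASMTL-AS1 (3.46), RALGPS2-AS1 (2.63), C1orf220 (2.39) and LINC01694 (1.94) were the others at the high end. LINC00632 (-1.28), FZD10-AS1 (-0.97), SLC7A11-AS1 (-0.94) and the mitochondrial tRNA genes MT-TY (-0.98) and MT-TC (-0.95) stood at the low end. Of 5246 long noncoding RNA genes 305 were higher (5.81%) and 71 lower, and of 289 microRNA genes 7 were higher (2.42%) and none lower. Over genes of every type 5.31% were called higher and 3.21% lower. The share called higher was thus near that background for long noncoding RNA genes and below it for microRNA genes.

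**Figure D4:**
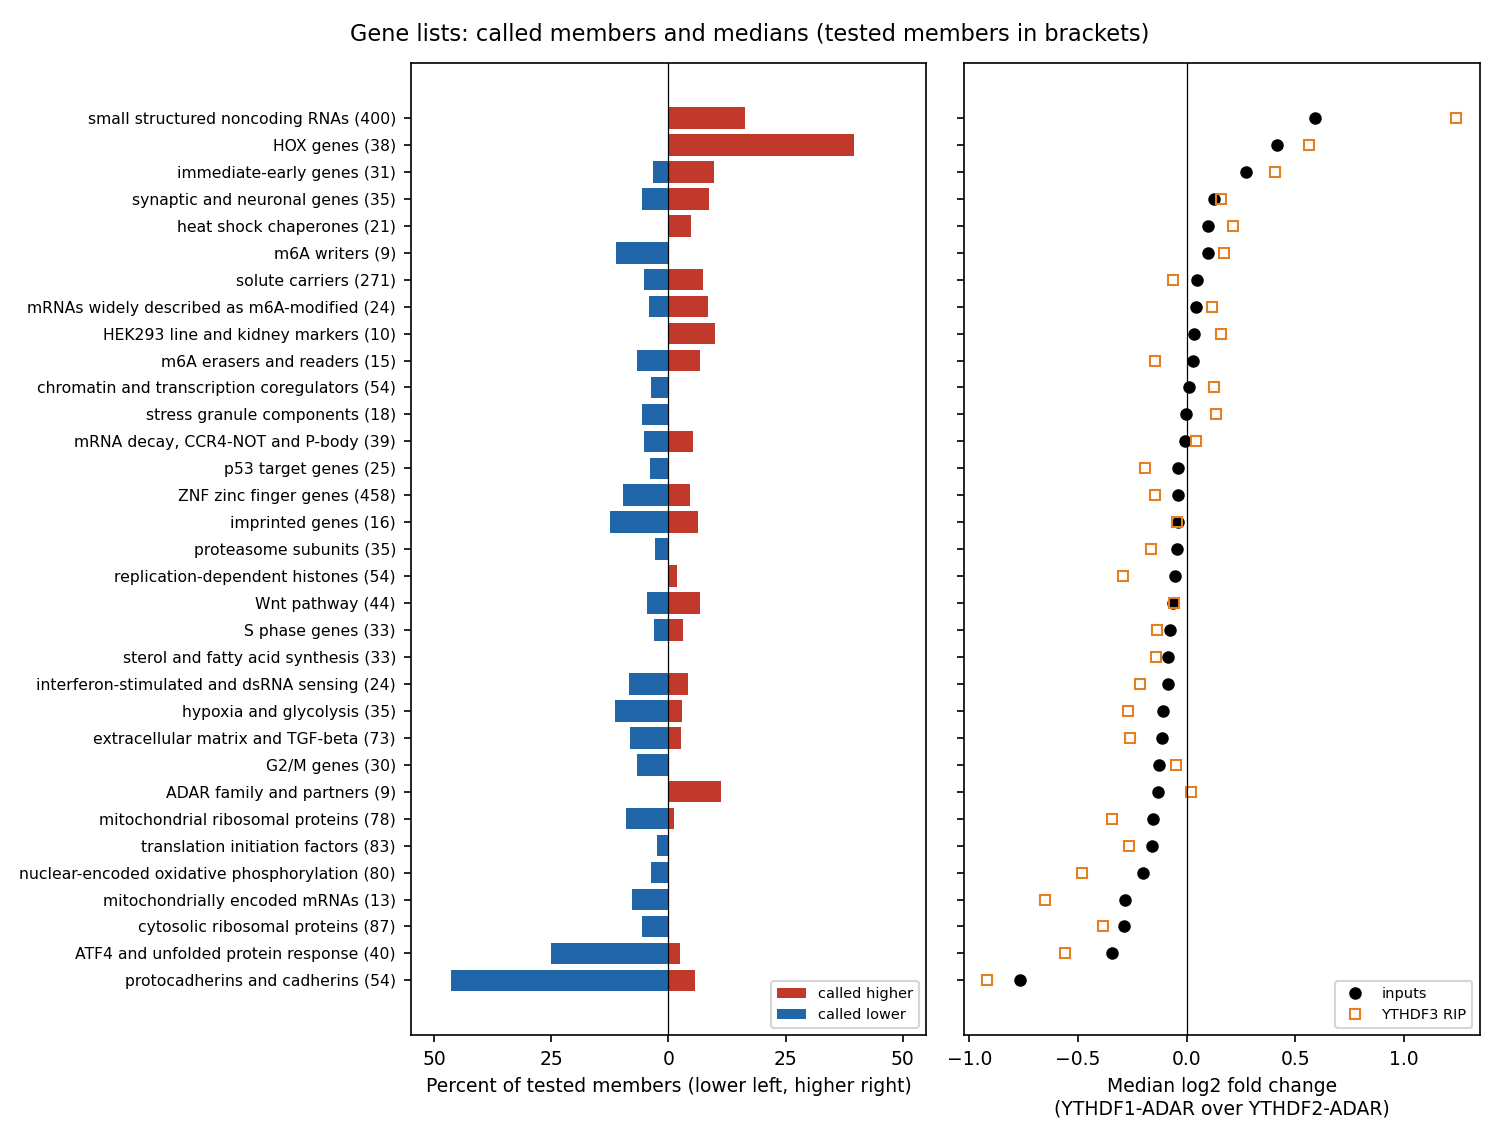
Left, percent of each gene list's tested members (their number in brackets) called higher (right of 0) or lower (left of 0) in YTHDF1-ADAR inputs; right, the list's median log2 fold change in inputs (filled circles) and YTHDF3 RIP libraries (open squares). Of the lists shown, small structured noncoding RNAs (median 0.59) and HOX genes (0.42) lie at the top. ATF4 genes (-0.34) and protocadherins and cadherins (-0.77) lie at the bottom. The latter list holds the 22 gamma protocadherins, which share exons and are 1 signal. Over 31 other protocadherins and cadherins the median was -0.04. Lists with fewer than 9 tested members are not shown, among them fibroblast and muscle markers (7 tested, median -0.47).

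Position on the chromosome went with direction on the short arm of chromosome 20, in stretches split where the sign turned, after the values were seen. From C20orf96 to FLRT3, gene starts 270863 to 14322985 on GRCh38, 77 of 83 tested protein-coding genes lay above 0, 32 were called higher and 1 lower, and the median was 0.51 (quartiles 0.31 to 0.68). From KIF16B to ZNF337, starts 16272104 to 25673195, 1 of 45 lay above 0, none was called higher and 29 lower, and the median was -0.53 (quartiles -0.79 to -0.44). The rest of the chromosome, HM13 to PCMTD2, starts 31514410 to 64255695, had 7 higher and 10 lower of 271 genes and a median of -0.07. The first stretch holds RASSF2 and the second XRN2, and both stretches together hold 62 of the 79 calls on chromosome 20.

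Each library's median over these genes was then set against the mean of the YTHDF3-ADAR inputs. In the first stretch YTHDF1-ADAR replicates 1 to 3 stood at -0.02, 0.01 and -0.01 on the log2 scale and YTHDF2-ADAR replicates at -0.44, -0.45 and -0.53. In the second stretch they stood at -0.22, -0.08 and -0.10, and at 0.43, 0.44 and 0.41. In both stretches it was thus the YTHDF2-ADAR libraries that lay away from the YTHDF3-ADAR level, all 3 of them alike. The RIP libraries gave medians of 0.50, with 75 of 83 above 0, and -0.62, with 1 of 45 above 0. Neighbouring genes are not replicates, so no test was made, and DNA copy number was not measured here.

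**Figure D5:**
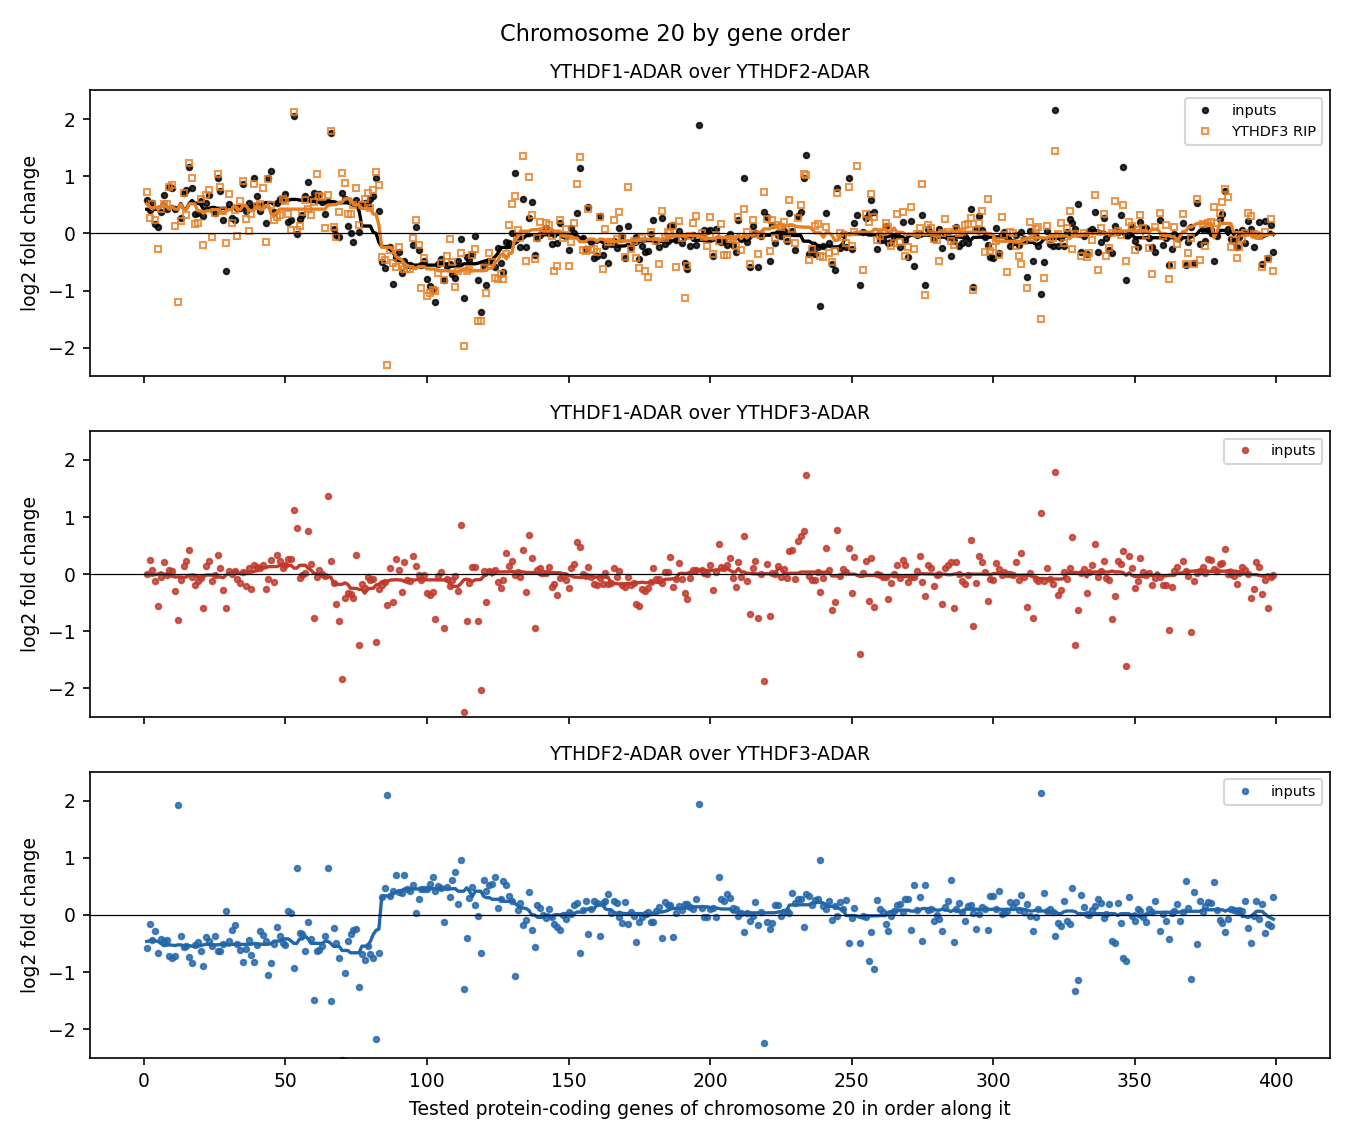
Log2 fold change of the tested protein-coding genes of chromosome 20 in gene order, with running medians over 21 genes, in 4 comparisons: YTHDF1-ADAR against YTHDF2-ADAR in inputs and in YTHDF3 RIP libraries, and each of these lines against YTHDF3-ADAR in inputs. Of 399 genes, 4, 1, 4 and 3 lie beyond the axis in these comparisons. The step from above to below 0 between FLRT3 and KIF16B appears in the first pair of comparisons, and inverted in YTHDF2-ADAR against YTHDF3-ADAR.

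Smaller shifts of a whole chromosome were seen elsewhere. Chromosome 8 had a median of 0.18, with 54 of 490 genes called higher and 9 lower, but this was 0.06 without YTHDF1-ADAR replicate 3. Chromosome 22 had a median of 0.14 (32 higher and 7 lower of 364), and the X chromosome one of -0.14 (13 higher and 54 lower of 516). Among 253 windows of 10 Mb with at least 20 genes, X at 130 to 140 Mb stood at -0.34 with 10 of 41 genes lower and none higher, and chromosome 9 at 30 to 40 Mb at -0.29 with 20 of 89 lower and 1 higher.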

How the data were processed

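Libraries were made from total RNA after DNase treatment and ribosomal RNA depletion with a directional kit, per the labels' protocols. The submitters' processing notes name STAR 2.7.7, featureCounts 2.0.1, DESeq2 and the builds GRCh38 and hg38. The values analysed are the deposited raw counts of read pairs in exons of each gene, with reads marked as duplicates left out per the file headers. Per the file headers, multi-mapping reads and reads over more than 1 gene were counted and strand was ignored, so a gene's count can include reads of a copy, an overlapping or an antisense gene. Genes are counted as overlapping where their exons overlap those of another gene that has at least 10 percent as many counts, summed over the inputs of the 3 lines. Overlaps with a partner of fewer counts were left out of such numbers. The authors' deposited comparison table, which also holds a mean signal per gene, served only for gene symbols. Every count column was used (0 left out), and a rat Apobec1 construct listed among the genes stayed out of the fits.

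Here genes were filtered by filterByExpr, scaled by TMM and fitted by group on 8 input libraries with edgeR 4.0.16 (limma 3.58.1, R 4.3.3, glmQLFit with robust = TRUE, glmQLFTest). The 3 lines shared 1 estimate of the spread, which gave 5 residual degrees of freedom. P-values were adjusted over all 24112 genes tested. The 9 YTHDF3 RIP libraries (26.3 to 37.5 M counts) were fitted on their own in the same way. Precision is the SE of a log2 fold change. The procedure was tested on simulated data. Named genes were the 14 highest and 14 lowest protein-coding and the 5 highest and 5 lowest other genes with a mean of at least 4 CPM, called with and without YTHDF1-ADAR replicate 1 and without overlap of the 3 and 3 libraries, up to 4 called genes of smallest p per list, and 14 genes always read; some of these are not reported here. Positions were described in windows of 10 Mb with at least 20 genes. The comparison, the rules and the 37 gene lists were chosen with earlier results of these data known. Comparisons of either line with YTHDF3-ADAR share libraries with each other and are given as values only. Alternatives tried were other samples in the fit, 3 other scalings, DESeq2 1.42.0, other filters, a replicate block and leave-outs. Promoter sequences came from RefSeq (GRCh38.p14), matched by symbol.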

Additional observations from a re-analysis of the deposited data

Results flagged for a closer look

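The count tables list RtApobec, a rat Apobec1 construct sequence that no comparison here uses. In these lines it took 6 counts in YTHDF1-ADAR input replicate 2, 18 and 10 counts in YTHDF1-ADAR YTHDF3 RIP replicates 1 and 2, and 4 and 14 counts in YTHDF3-ADAR YTHDF3 RIP replicates 1 and 3. Each is above the 3 counts that a count of 0 allows, which covers counting error only. The other inputs of YTHDF1-ADAR held 2 and 0 counts, those of YTHDF2-ADAR 0, 0 and 1, and the YTHDF2-ADAR YTHDF3 RIP libraries 0.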

How the results depend on the processing

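No called gene among the named ones changed direction under the alternatives run, but other values did. The medians of 18 of 37 gene lists changed sign, among them m6A readers, heat shock, Wnt, solute carrier and imprinted genes and mitochondrially encoded mRNAs (-0.62 to 0.10), as did the uncalled YTHDF3, METTL14, ALKBH5 and ACTB. Of the protein-coding genes, 694 were higher and 728 lower in YTHDF1-ADAR inputs. These counts were 1113 and 1277 with YTHDF1-ADAR replicate 1 kept, 264 and 320 in 1 model of all 12 groups, and 718 and 964 by DESeq2. Lower calls rose to 1382 with no filter on low counts. Leaving out 1 library gave 233 to 581 higher and 165 to 755 lower. Over genes of every type, 1341 were higher and 837 lower, against 2312 and 1467 with that replicate kept, 718 and 375 in the model of 12 groups, and 1646 lower with no filter, with leave-outs at 346 to 1131 and 181 to 860. In the YTHDF3 RIP libraries the 589 higher and 914 lower genes became 188 to 501 and 167 to 794 when 1 library was left out. YTHDF1, YTHDF2 and ADARB1 stayed past the limit in every alternative, at 2.91 to 3.06, -1.03 to -0.84 and 3.18 to 3.30. Of 124 named genes, 65 kept their side of the limit throughout. The model of 12 groups lost 43 named calls and leaving out YTHDF1-ADAR replicate 2 lost 42. The medians of HOX genes (0.30 to 0.51) and ATF4 genes (-0.48 to -0.23) kept their sign, as did those of chromosome 20 at 0 to 15 Mb (0.43 to 0.55) and 15 to 30 Mb (-0.61 to -0.49), windows added after seeing the data.

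With the replicate number as a block, 415 protein-coding genes were higher and 379 lower, and of every type 730 and 429. The inputs share only a number: same-numbered deviations of the pair correlated at 0.21, -0.06 and -0.07, and 2 of 6 libraries correlated best with their own number. The block gave 687 and 1118 in the RIP libraries. An arm left with 1 library is assumed to vary like the other groups.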
